A study of Danio rerio with 10 samples.

Results

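The genes described here are the zebrafish zinc finger genes named znf and a number, found by taking every Ensembl identifier of the count files whose symbol, in any case, begins with znf followed by a digit. They are 315 of the 32057 identifiers, with 305 distinct symbols, since 10 symbols are carried by 2 identifiers each. By the number in the symbol, 203 run between 970 and 1187, a numbering used for zebrafish genes, and 112 run between 16 and 865, the range shared with human gene names. These are called high-number and low-number genes below. Symbols are written as the gene table gives them, so some are in capitals.

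Zinc finger proteins of the C2H2 type fold short stretches of peptide around zinc, most often in rows of fingers that bind DNA, and many act as transcription factors or repressors. Some members of the family bind RNA or ribosomes instead. In zebrafish, many such genes lie in large clusters of similar copies, and reads that match several copies equally well are not counted by the method used for these files, so the values of such genes are uncertain.

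RNA from whole embryos was sequenced in 10 libraries, 2 per group, each from a pool of 30 to 35 embryos. The groups were rpgrip1l-/- embryos (labelled rpgrip1l KO) and wild-type (WT) embryos at 5 days post fertilization (dpf), and, at 2 dpf, rpgrip1l-/- embryos with a curled-down tail (CDT), rpgrip1l-/- embryos with a normal-looking tail (normal) and WT embryos. The gene rpgrip1l encodes a protein of the ciliary transition zone, the gate at the base of the cilium, and the study asked how mutants in such genes vary in form. The mutants carry 1 out-of-frame CRISPR/Cas9 allele on the AB strain and came from homozygous parents, whereas WT embryos came from AB parents, so genotype and parentage cannot be told apart. The tail form of the mutant pools at 5 dpf is not given in the labels, and the sources do not say whether the 2 pools of a group came from separate matings, so that p-values measure the spread between pools.

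Library totals ran between 9101264 and 17536165 counts on genes, and no library was a copy of its replicate. Counts of rpgrip1l itself were 11 and 24 in rpgrip1l-/- against 21 and 22 in WT embryos at 5 dpf. They were 36 and 18 in CDT, 22 and 27 in normal and 20 and 26 in WT embryos at 2 dpf, with no call, so that this gene does not check the labels. Transcripts of muscle, epidermis, neurons, blood, liver and lens were found in all libraries. The WT libraries at 2 dpf stood apart from both mutant groups of that age over the whole transcriptome. Their scaling factors by the trimmed mean of M values (TMM) were 0.84 and 0.82, against 1.17 to 1.22 in the mutant libraries, and 3.48% to 4.05% of their reads aligned to several places, against 4.95% to 6.31% in the mutants. Of 49 tested genes with very long mRNAs (a list added after the data were seen), 43 were called higher in CDT and 43 in normal than in WT embryos, with median log2 fold changes of 1.00 and 1.06, whereas 77 and 75 of 79 ribosomal protein genes were called lower, with medians of -0.83 and -0.84. At 5 dpf, the medians of these lists were 0.01 and -0.12. The part of these differences in the results below was not tested. They touch every comparison that uses WT embryos at 2 dpf.

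Most znf genes gave few counts. The mean over the 10 libraries, in CPM (counts scaled to library size, here with TMM factors and no correction for transcript length), had a median of 1.20 CPM over the 315 genes. It was 0.657 CPM for high-number genes, with an interquartile range of 0.209 to 1.55 CPM, and 8.52 CPM for low-number genes, with an interquartile range of 3.99 to 17.4 CPM. Since lengths were not used, these are counts of reads and not levels per transcript. The identifiers of znf1150 and znf1145 had no count in any library. Only ZNF706 (ENSDARG00000056307), a small protein studied in stem cells, and znf185 (ENSDARG00000103917) averaged more than 50 CPM, at 85.2 and 68.9 CPM. Among high-number genes, only znf1035 (ENSDARG00000042969) and znf1124 (ENSDARG00000069796) averaged more than 10 CPM, at 24.5 and 10.8 CPM. Those 4 genes were singled out after their values were seen.

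Summed over the high-number genes, libraries at 5 dpf gave less than libraries at 2 dpf in every group. The sums were 180 and 197 CPM in rpgrip1l-/- and 210 and 197 CPM in WT embryos at 5 dpf. They were 292 and 315 CPM in CDT, 283 and 294 CPM in normal and 270 and 269 CPM in WT embryos at 2 dpf. The low-number genes summed to 1341 and 1417 CPM in rpgrip1l-/- and 1382 and 1384 CPM in WT embryos at 5 dpf. With TMM factors, these sums lay below all 6 libraries at 2 dpf, which lay between 1515 and 1564 CPM. Without these factors, WT sums overlapped, at 1191 and 1270 CPM at 5 dpf against 1281 and 1252 CPM at 2 dpf. Mutant sums were then 1279 and 1358 at 5 dpf, against 1891 and 1818 (CDT) and 1794 and 1871 CPM (normal) at 2 dpf. The high-number sums of WT embryos stayed apart, at 181 and 180 CPM at 5 dpf against 227 and 219 CPM at 2 dpf. In bulk RNA, fewer cells of a type and less RNA per cell cannot be told apart.

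**Figure D1:**
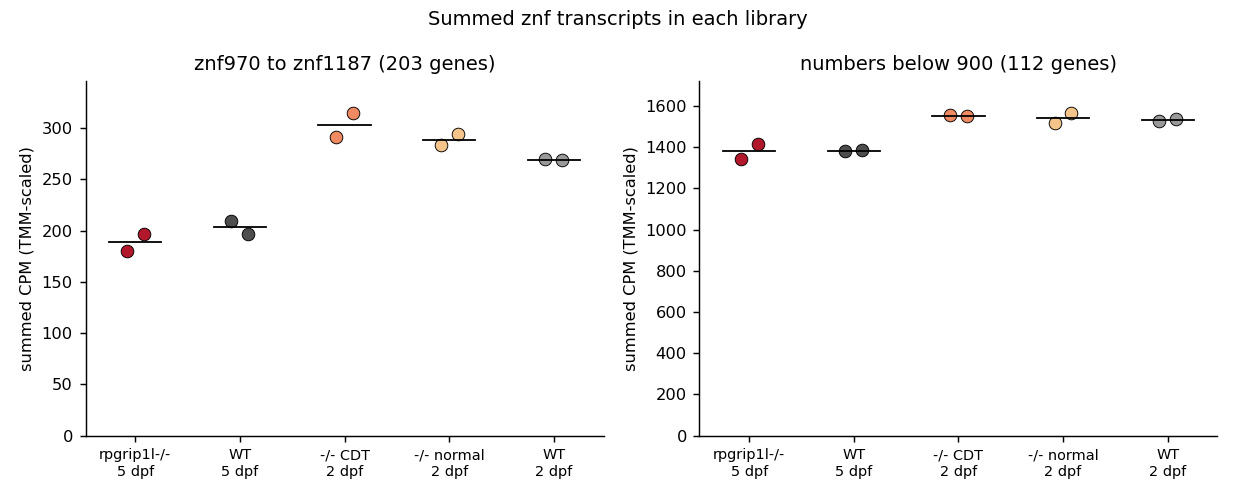
Summed CPM (TMM-scaled) of the high-number genes (left) and low-number genes (right) in each library, with points for libraries and bars for group means of 2 libraries. The 4 libraries at 5 dpf lie between 180 and 210 CPM for high-number genes, and the 6 libraries at 2 dpf between 269 and 315 CPM.

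edgeR's filter on low counts passed 187 of the 315 genes at 5 dpf, 231 at 2 dpf and 237 in the fit of all 10 libraries. The 78 genes tested in no fit had at most 0.425 CPM, and 73 of them were high-number genes. Another 46 genes were tested at 2 dpf but not at 5 dpf, 44 of them high-number genes, so the tested genes are not the whole family. A gene was called when the p of edgeR's quasi-likelihood test, adjusted by Benjamini-Hochberg over all genes tested, was under 0.05. Fold changes are on the log2 scale with their standard errors (SE).

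With age, more znf genes were lower than higher. In mutants, 18 of 237 tested znf genes were called higher and 94 lower at 5 dpf than at 2 dpf (taking the mean of CDT and normal embryos), beside 33.1% and 29.6% of all genes tested. Their median log2 fold change was -0.48, beside 0.00 for all genes. In WT embryos, 25 were called higher and 53 lower at 5 dpf, beside 31.3% and 29.5% of all genes, with a median of -0.31 beside 0.03. These age comparisons share no library, and 48 genes were called lower in both, which is 48 of 94 in mutants and 48 of 53 in WT embryos. Another 10 were called higher in both, 10 of 18 in mutants and 10 of 25 in WT embryos. The same overlap over all genes is not given here, so these counts are not read as a trait of the family.

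Among high-number genes, nearly all genes called with age were lower at 5 dpf. Of 130 tested high-number genes, 42 were called lower at 5 dpf in mutants and 1, znf1156, higher, and 21 were called lower and 0 higher in WT embryos. The filter on low counts passed 44 high-number genes at 2 dpf but not at 5 dpf, and 0 the other way. A fall with age was thus favoured among the low-count genes tested. With at least 10 counts in every library, 47 high-number genes were tested. Of these, 18 were called lower and 0 higher in mutants, and 10 lower and 1 higher in WT embryos. At an unadjusted p under 0.05, 27 of the 130 high-number genes changed with age in WT embryos, beside 13516 of 21016 over all genes. DESeq2 called 14 high-number genes lower and 0 higher. Without WT replicate 1 at 2 dpf, the number of znf genes called higher with age in WT embryos was 15 in place of 25. Of 107 low-number genes, 52 were called lower and 17 higher in mutants, and 32 lower and 25 higher in WT embryos. The median log2 fold change was -0.68 for high-number and -0.36 for low-number genes in mutants, and -0.43 and -0.03 in WT embryos.

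Among genes that were higher at 5 dpf, ZNF395 (ENSDARG00000024195), whose human counterpart is a DNA-binding protein of the cytosol and nucleus, had the largest rise in both genotypes among genes of at least 1 CPM. It had 53.8 and 64.0 CPM in mutants at 5 dpf, against 12.9 and 13.9 CPM in CDT and 8.91 and 12.6 CPM in normal embryos at 2 dpf, and 56.4 and 62.2 CPM in WT embryos at 5 dpf, against 10.7 and 11.1 CPM at 2 dpf. No library at 2 dpf reached any library at 5 dpf, with log2 fold changes of 2.28 ± 0.11 (edgeR, adjusted p = 8.62e-17) in mutants and 2.45 ± 0.14 (adjusted p = 6.76e-15) in WT embryos. ZNF536, a brain zinc finger protein that restrains neuron differentiation in mouse cells, had 11.2 and 14.9 CPM in mutants at 5 dpf against 7.49 and 8.96 CPM in CDT and 7.14 and 8.46 CPM in normal embryos at 2 dpf, and 12.50 and 12.17 CPM in WT embryos at 5 dpf against 4.0 and 3.38 CPM at 2 dpf. The age change of ZNF536 was 0.70 ± 0.15 in mutants and 1.73 ± 0.20 in WT embryos.

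Several genes tied to ribosomes also differed with age, in both directions. ZNF598, a ubiquitin ligase of ribosome quality control, had 19.4 and 22.6 CPM in mutants at 5 dpf against 9.53 to 14.2 CPM at 2 dpf, and 25.3 and 27.1 CPM in WT embryos at 5 dpf against 14.3 and 13.9 CPM at 2 dpf. Its log2 fold changes were 0.80 ± 0.13 in mutants and 0.89 ± 0.15 in WT embryos (edgeR, adjusted p = 5.38e-06 and 8.25e-06). ZNF622, a maturation factor of the large ribosomal subunit, was higher at 5 dpf by 0.81 ± 0.09 in mutants and 0.50 ± 0.11 in WT embryos. In contrast znf593, also a maturation factor of that subunit, was lower at 5 dpf, with changes of -0.41 ± 0.10 in mutants and -0.90 ± 0.11 in WT embryos. ZNF648 was called higher in both genotypes, by 0.87 in mutants and 1.13 in WT embryos. So was ZNF644 (ENSDARG00000102025), a gene of high myopia in human, by 0.94 in mutants and 1.03 in WT embryos, where the call was lost without replicate 2 at 5 dpf, at 0.65. The gene znf644a (ENSDARG00000101361) went the other way in mutants, at -0.43 ± 0.14 (edgeR, adjusted p = 0.0103). That call was lost in 1 of the fits that left out a library.

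Among genes that were lower at 5 dpf, both identifiers of ZNF281, a factor that binds GC-rich promoters and maintains stem cells in mouse, were called in both genotypes. The identifier ENSDARG00000035910 had 11.7 and 13.3 CPM in mutants at 5 dpf against 27.4 and 25.9 CPM in CDT and 23.4 and 27.6 CPM in normal embryos at 2 dpf, and 9.13 and 8.83 CPM in WT embryos at 5 dpf against 22.7 and 21.2 CPM at 2 dpf. Ages did not overlap, with log2 fold changes of -1.06 ± 0.12 (edgeR, adjusted p = 8.28e-09) in mutants and -1.29 ± 0.14 (adjusted p = 5.03e-09) in WT embryos. The identifier ENSDARG00000000567 changed by -1.22 ± 0.17 in mutants and -1.04 ± 0.21 in WT embryos. The ZNF207 gene ENSDARG00000101277, named after the human spindle assembly protein BUGZ, was lower at 5 dpf with log2 fold changes of -0.78 ± 0.09 in mutants and -1.23 ± 0.10 in WT embryos. The activator of small nuclear RNA promoters ZNF143 (ENSDARG00000041581) changed by -0.96 ± 0.12 in mutants and -0.91 ± 0.13 in WT embryos, and znf296, which takes part in pluripotency in mouse, by -0.58 ± 0.10 in mutants and -0.85 ± 0.11 in WT embryos. The other ZNF143 identifier, ENSDARG00000012887, averaged 19.5 CPM and was not called with age. Its changes were 0.22 ± 0.12 in mutants and 0.08 ± 0.14 in WT embryos.

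Other low-number genes that were lower at 5 dpf have roles in single tissues. The gene znf488, whose mouse counterpart acts in oligodendrocytes, had 1.43 and 2.75 CPM in mutants at 5 dpf against 4.73 to 6.73 CPM at 2 dpf, and 2.78 and 1.7 CPM in WT embryos at 5 dpf against 7.84 and 6.48 CPM at 2 dpf. Its changes were -1.51 ± 0.26 in mutants and -1.68 ± 0.27 in WT embryos. The gene znf750, a factor of epidermal differentiation in human, changed by -0.53 ± 0.17 in mutants and -1.34 ± 0.18 in WT embryos, and znf541, a chromatin protein of meiosis in mouse, by -2.76 ± 0.65 in mutants and -1.72 ± 0.63 in WT embryos. The change of znf541 rests on 3 and 1 counts in mutants at 5 dpf, and its call in WT embryos was lost without either replicate at 5 dpf or replicate 1 at 2 dpf. That of znf750 in mutants was lost without replicate 1 at 5 dpf, at -0.26. Of the high-number genes, znf1068 changed by -1.20 in mutants and -2.23 in WT embryos, znf1140 by -2.15 in mutants and -1.35 in WT embryos and znf1040 by -1.82 in mutants and -0.95 in WT embryos, and all 3 were called in both. The call of znf1140 in WT embryos was lost without replicate 2 at 5 dpf, at -0.84, and without replicate 1 at 2 dpf.

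Among named genes, the largest fall with age was that of ZNF821 in mutants. It had 2 and 0 counts in mutants at 5 dpf, against 36 and 34 in CDT and 22 and 28 in normal embryos at 2 dpf, a ratio of 0.0366 (95% counting interval 0.00438 to 0.135). In WT embryos it had 4 and 3 counts at 5 dpf against 7 and 6 counts at 2 dpf, where no change was called (log2 fold change -1.26 ± 0.71). The filter on low counts passed ZNF821 through mutant libraries at 2 dpf alone, so a fall with age in mutants was favoured for it.

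At 2 dpf, znf genes were called higher in mutants more often than lower, in both tail forms. In CDT against WT embryos, 65 of 231 tested znf genes (28.1%) were called higher and 16 (6.93%) lower, beside 20.0% and 20.4% of all genes. In normal against WT embryos, 45 (19.5%) were called higher and 15 (6.49%) lower, beside 19.2% and 20.4%. The share called higher in normal embryos was thus near that of all genes, and the share called lower was smaller. The median log2 fold change of the znf genes was 0.27 in CDT and 0.28 in normal embryos, beside 0.03 and 0.01 for all genes. Both comparisons use the same 2 WT libraries. The counts came to 127 higher and 4 lower in CDT and 118 higher and 6 lower in normal embryos when libraries were scaled by their size alone, under which the median of all genes was 0.48 in CDT and 0.46 in normal embryos. Without WT replicate 2, 41 genes were called higher and 10 lower in CDT embryos.

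Called genes were mostly low-number genes. Of 105 tested low-number genes, 46 were called higher and 8 lower in CDT, and 37 higher and 10 lower in normal embryos. Of 126 tested high-number genes, 19 were called higher and 8 lower in CDT, and 8 higher and 5 lower in normal embryos. DESeq2 called 7 of them higher and 3 lower in CDT, and 2 higher and 3 lower in normal embryos. The medians of the subgroups were closer, at 0.27 and 0.31 for low-number and 0.28 and 0.22 for high-number genes in CDT and in normal embryos. The median SEs were 0.17 and 0.17 for low-number and 0.44 and 0.46 for high-number genes. High-number genes thus needed larger changes to be called, and the numbers of calls do not compare the subgroups.

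**Figure D2:**
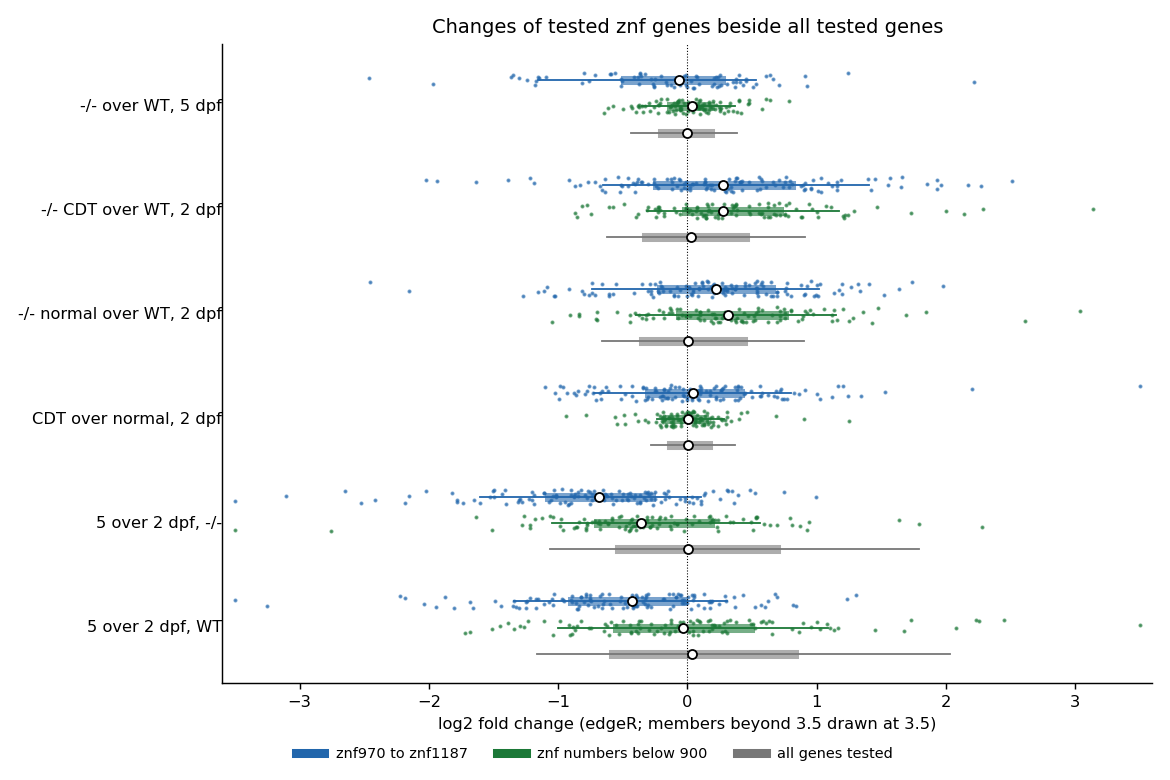
Log2 fold changes (edgeR) in 6 comparisons for high-number genes (blue), low-number genes (green) and all genes tested (grey), with thin lines for the 10th to 90th percentile, thick lines for the quartiles, white points for medians and dots for single znf genes. At 2 dpf, the znf medians lie right of 0 for both mutant groups (0.22 to 0.31), and with age the high-number medians lie at -0.68 in mutants and -0.43 in WT embryos.

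Some genes with roles in nerve cells stood among those called higher. Of the 49 tested genes with a known role, 23 were called higher and 4 lower in CDT, and 17 and 4 in normal embryos. Over all genes, 20.0% were called higher and 20.4% lower in CDT, and 19.2% and 20.4% in normal embryos. The genes with a known role were chosen with earlier results of these data known. Others of them were not called, such as ZNF503, at 0.006 ± 0.097 in CDT and -0.008 ± 0.098 in normal embryos. ZNF462 (ENSDARG00000112909), a chromatin protein of neural development in mouse, had 5.07 and 6.29 CPM in CDT and 5.29 and 5.7 CPM in normal embryos, against 1.88 and 1.69 CPM in WT embryos. No mutant library was as low as a WT library, with log2 fold changes of 1.73 ± 0.27 (edgeR, adjusted p = 9.56e-07) in CDT and 1.69 ± 0.28 (adjusted p = 2.60e-06) in normal embryos. ZNF536 had 7.49 and 8.96 CPM in CDT and 7.14 and 8.46 CPM in normal embryos, against 4.0 and 3.38 CPM in WT embryos, with log2 fold changes of 1.22 ± 0.21 and 1.16 ± 0.22. The ZNF521 gene ENSDARG00000116769, a factor of neural differentiation in mouse, had 1.36 and 1.91 CPM in CDT and 2.13 and 1.97 CPM in normal embryos, against 0.157 and 0.563 CPM in WT embryos. Its WT values rest on 2 and 6 counts, and its log2 fold changes were 2.29 ± 0.55 and 2.61 ± 0.54. The filter on low counts passed it at 2 dpf through mutant libraries alone, so a positive sign was favoured for it. The other ZNF521 identifier, ENSDARG00000086825, was called in neither tail form. ZNF711, a gene of X-linked intellectual disability in human, and ZNF292 and znf292a, named after a human gene of neurodevelopment, were called higher in both tail forms, with log2 fold changes between 0.58 and 0.80. Calls were lost for ENSDARG00000116769 in CDT and for ZNF711 in normal embryos without WT replicate 1, and for znf292a in normal embryos without normal replicate 2.

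The human counterpart of znf423 is a gene of Joubert syndrome and nephronophthisis, disorders of the cilium. Its identifier ENSDARG00000059707 had 19.1 and 17.5 CPM in CDT and 19.4 and 20.2 CPM in normal embryos, against 8.54 and 10.8 CPM in WT embryos. Mutant and WT libraries did not overlap, with log2 fold changes of 1.01 ± 0.15 (edgeR, adjusted p = 2.18e-07) in CDT and 1.12 ± 0.15 (adjusted p = 2.76e-08) in normal embryos. At 5 dpf it had 14.6 and 16.6 CPM in rpgrip1l-/- against 12.4 and 16.9 CPM in WT embryos, which overlap, and a log2 fold change of 0.09 ± 0.16 was not called (adjusted p = 0.846). The other identifier with this symbol was not tested, at a mean of 0.0075 CPM.

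Genes of connective tissue, eye and cartilage were also among those called higher. The gene znf469, whose human counterpart underlies brittle cornea syndrome, had 10.8 and 9.53 CPM in CDT and 10.1 and 8.85 CPM in normal embryos, against 4.78 and 2.82 CPM in WT embryos. Its log2 fold changes were 1.47 ± 0.21 (edgeR, adjusted p = 1.02e-07) in CDT and 1.36 ± 0.21 (adjusted p = 1.12e-06) in normal embryos, with no overlap. The gene znf219, whose mammalian counterpart works with Sox9 in cartilage, had 13.9 and 13.1 CPM in CDT and 13.5 and 16.9 CPM in normal embryos, against 6.58 and 5.35 CPM in WT embryos, again with no overlap, and log2 fold changes of 1.25 ± 0.17 and 1.43 ± 0.17. Both identifiers of ZNF609, a partner of the cohesin loader in mouse, were called higher, ENSDARG00000103388 by 1.21 ± 0.20 in CDT and 1.28 ± 0.21 in normal embryos and ENSDARG00000104530 by 0.62 ± 0.12 and 0.75 ± 0.13. ZNF507, ZNF319 and ZNF618 were called higher in both tail forms as well, by 1.48, 1.25 and 1.21 in normal embryos, where the call of ZNF507 was lost without normal replicate 1 or WT replicate 2.

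Of the high-number genes, znf1035 had the most counts. It had 36.1 and 35.6 CPM in CDT and 33.3 and 31.1 CPM in normal embryos, against 16.9 and 16.2 CPM in WT embryos, and log2 fold changes of 1.19 ± 0.12 (edgeR, adjusted p = 9.86e-12) in CDT and 1.03 ± 0.12 (adjusted p = 1.03e-09) in normal embryos. The mutant libraries were all above the WT libraries. At 5 dpf its values were 18.7 and 19.1 CPM in rpgrip1l-/- and 19.1 and 18.9 CPM in WT embryos, with a log2 fold change of -0.01 ± 0.12. Among genes with fewer counts, znf1187 was called higher in both tail forms, counted 40 and 54 times in CDT and 23 and 23 times in normal embryos, against 6 and 12 times in WT embryos. ZNF821 was higher in both by 2.01 ± 0.45 and 1.85 ± 0.47, whereas znf1094, znf1118, znf1163 and znf1029, with changes between 1.55 and 2.18, were called in CDT embryos alone, a contrast between tail forms that the test of CDT against normal embryos did not call. The WT libraries by themselves would not have passed ZNF821, znf1187 or znf1163 through the filter on low counts at 2 dpf. With 5 and 9 counts in normal and 3 and 9 in WT embryos, znf1163 passed through CDT embryos alone. A positive sign was thus favoured for ZNF821, znf1187 and znf1163. The call of znf1187 in normal embryos was lost without normal replicate 1 and without WT replicate 1, where its change was 0.73, and that of znf1163 in CDT embryos without either CDT replicate and without WT replicate 1, at 0.95.

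Of the ribosome-linked genes named above, znf593 alone was called at 2 dpf, and it was lower in both mutant groups. The gene had 37.5 and 42.0 CPM in CDT and 47.3 and 42.8 CPM in normal embryos, against 71.7 and 81.9 CPM in WT embryos. Its log2 fold changes were -0.87 ± 0.10 (edgeR, adjusted p = 4.03e-10) in CDT and -0.70 ± 0.10 (adjusted p = 1.06e-07) in normal embryos, beside medians of -0.83 and -0.84 over the ribosomal protein genes. No call was made for ZNF622, at -0.18 ± 0.11 in CDT and -0.04 ± 0.12 in normal embryos, or for ZNF598, at -0.22 ± 0.16 and -0.08 ± 0.16 (edgeR, adjusted p = 0.202 and 0.823 for ZNF622, 0.264 and 0.731 for ZNF598). Among the other genes called lower, ZNF706 had 66.8 and 66.9 CPM in CDT and 64.2 and 58.7 CPM in normal embryos, against 108 and 103 CPM in WT embryos, with log2 fold changes of -0.58 ± 0.09 and -0.70 ± 0.09. ZNF511 had 4.6 and 6.92 CPM in CDT and 3.99 and 5.83 CPM in normal embryos, against 10.8 and 11.1 CPM in WT embryos, and log2 fold changes of -0.85 ± 0.19 and -1.05 ± 0.21. The epidermal gene znf750 was lower, with changes of -0.75 ± 0.16 in CDT and -0.84 ± 0.16 in normal embryos, beside 3 epidermal marker transcripts with a median of -0.65 in CDT and -0.62 in normal embryos, 2 of them called lower in each. For znf593, ZNF706, ZNF511 and znf750, all mutant libraries lay below both WT libraries.

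**Figure D3:**
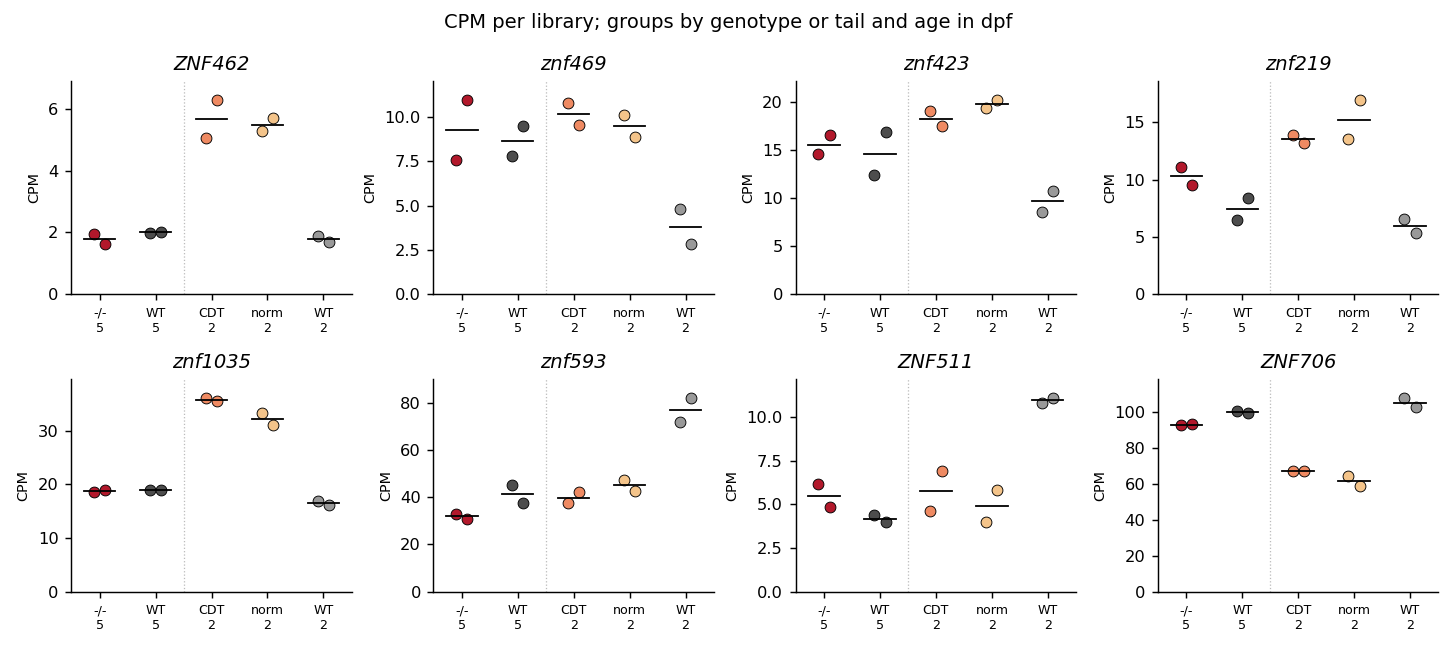
CPM in each library for 8 znf genes, with points for libraries and bars for means, at 5 dpf (rpgrip1l-/-, WT) and 2 dpf (CDT, normal, WT). ZNF462, znf469, znf423, znf219 and znf1035 are higher in the 4 mutant libraries at 2 dpf than in the WT libraries of that age, and znf593, ZNF511 and ZNF706 are lower.

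Few znf genes were called between the 2 tail forms. Of 231 tested znf genes, 2 were called higher in CDT than in normal embryos, beside 0.657% of all genes, and 0 were called lower, beside 0.295%. By DESeq2 none was called, and 28 of 231 had an unadjusted p under 0.05, beside 2071 of 19636 over all genes. The median SE of the log2 fold change was 0.42 for high-number and 0.16 for low-number genes. The few calls therefore do not show that the tail forms were alike. The gene znf185, whose human counterpart is a LIM domain protein that binds actin, had 95.7 and 73.2 CPM in CDT and 62.0 and 61.4 CPM in normal embryos. The groups did not overlap, with a log2 fold change of 0.46 ± 0.10 (edgeR, adjusted p = 0.0073). The other gene, znf1106 (ENSDARG00000101843), was found with 13 and 13 counts in CDT embryos, against 1 and 0 in normal embryos, a ratio of 20.7 (95% counting interval 3.4 to 849), and a fitted log2 fold change of 4.08 ± 1.00 (edgeR, adjusted p = 0.023). It averaged under 1 CPM and is named because it was 1 of 2 genes called. The call of znf1106 was lost whichever of the 6 libraries was left out, and that of znf185 without CDT replicate 1, where its change was 0.24, and without either normal replicate. The gene znf1094 had 2.83 and 2.35 CPM in CDT and 1.48 and 0.787 CPM in normal embryos, which do not overlap, but its log2 fold change of 1.25 ± 0.39 was not called (adjusted p = 0.129).

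At 5 dpf, few znf genes differed between rpgrip1l-/- and WT embryos. Of 187 tested znf genes, 1 was called higher and 1 lower, beside 1.28% and 2.56% of all genes. Of the 187, 25 had an unadjusted p under 0.05, beside 3400 of 20071 over all genes. DESeq2 called none of the 187, and their median log2 fold change was 0.00. The gene called lower was znf1141 (ENSDARG00000116625), with 19 and 23 counts, or 1.43 and 1.71 CPM, in rpgrip1l-/- embryos, against 63 and 61 counts, or 4.17 and 3.85 CPM, in WT embryos. The groups did not overlap, with a log2 fold change of -1.35 ± 0.31 (edgeR, adjusted p = 0.0221). The gene called higher was znf1118 (ENSDARG00000100112), with 15 and 18 counts in rpgrip1l-/- against 4 and 4 counts in WT embryos and a log2 fold change of 2.22 ± 0.57 (adjusted p = 0.0413). It averaged under 1 CPM at this age and is named because it was the only one. The filter on low counts passed it through rpgrip1l-/- embryos alone. The call of znf1118 was lost whichever of the 4 libraries was left out, and that of znf1141 without rpgrip1l-/- replicate 1 and without WT replicate 1. Among the 49 tested genes with a known role, log2 fold changes ran between -0.65 and 0.78, 8 had an unadjusted p under 0.05, and neither edgeR nor DESeq2 called one.

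No znf gene was called in 1 direction in all 3 comparisons of mutants with WT embryos. An unadjusted p under 0.05 was found for 25 of 187 in rpgrip1l-/- at 5 dpf, 97 of 231 in CDT and 84 of 231 in normal embryos. Over all genes, the numbers were 3400 of 20071, 9480 of 19636 and 9237 of 19636. Genes called in 1 direction in all 3 comparisons were few over all genes as well. Of 3018 called higher in both tail forms, 59 were also called higher at 5 dpf, and of 3209 called lower, 200 were also called lower. The genes called at 2 dpf were also read at 5 dpf, where no library is shared. Of the 8 high-number genes called lower in CDT embryos at 2 dpf, 7 were tested at 5 dpf. All 7 had a negative log2 fold change there, with a median of -1.18, 6 had an unadjusted p under 0.05 and 1, znf1141, was called. Over all genes called lower in CDT embryos and tested at 5 dpf, 63.5% had a negative log2 fold change at 5 dpf and the median was -0.07. Over all 82 high-number genes tested at 5 dpf, 42.7% were positive, with a median of -0.06 and a 10th percentile of -1.15. The filter on low counts passed znf1077 and znf1113 at 5 dpf through WT embryos alone. A negative sign was thus favoured among the low-count genes tested there. Both genes are among the 7 and the 6 above, and the median of -1.18 is the value of znf1077. The signs are described only and are not read as a change kept between the ages. Of the 5 high-number genes called lower in normal embryos, 4 were tested at 5 dpf. All 4 were lower there by their values, between -1.18, again the value of znf1077, and -0.33. The high-number genes called higher showed no such lean to 1 side. Of 19 called higher in CDT embryos, 13 were tested at 5 dpf. Among these, 7 (53.8%) had a positive log2 fold change, the median of the 13 was 0.04, and 1, znf1118, was called higher at both ages. The filter on low counts passed znf1118 at 5 dpf through rpgrip1l-/- embryos alone, so a positive sign was favoured for it. Of the 4 called higher in both tail forms, all 4 were tested at 5 dpf and 1 was positive there. Over all genes called higher in CDT embryos, 58.5% were positive at 5 dpf. Called low-number genes had smaller values at 5 dpf, with a median of -0.08 over the 8 called lower and 0.09 over the 45 tested of the 46 called higher in CDT embryos.

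The 8 genes called lower in CDT embryos had few counts, and none is annotated here beyond its zinc finger name. DESeq2 called 3 high-number genes lower in CDT embryos, and a filter of at least 10 counts in every library left 4. The gene znf1156 had 1.83 and 2.48 CPM in CDT and 0.464 and 1.77 CPM in normal embryos, against 6.5 and 7.6 CPM in WT embryos at 2 dpf, and 2.48 and 3.94 CPM in rpgrip1l-/- against 6.68 and 3.91 CPM in WT embryos at 5 dpf. The ages differed in overlap, since mutant and WT libraries were apart at 2 dpf but not at 5 dpf. Its log2 fold changes were -1.63 ± 0.29 (edgeR, adjusted p = 8.49e-06) in CDT, -2.46 ± 0.33 (adjusted p = 3.59e-08) in normal and -0.72 ± 0.30 (adjusted p = 0.239) in 5 dpf mutants. The gene znf1077 was counted 17 and 6 times in CDT and 13 and 16 times in normal embryos, against 39 and 28 counts in WT embryos at 2 dpf, and 6 and 8 counts in rpgrip1l-/- against 21 and 16 counts in WT embryos at 5 dpf. Mutant and WT libraries did not overlap at either age, with log2 fold changes of -1.93 ± 0.42 and -1.27 ± 0.41 at 2 dpf and -1.18 ± 0.51 at 5 dpf, of which the last was not called (edgeR, adjusted p = 0.248). The gene znf1179 had 7.31 and 7.88 CPM in CDT and 5.2 and 5.05 CPM in normal embryos, against 11.13 and 12.11 CPM in WT embryos at 2 dpf, and 2.78 and 3.2 CPM in rpgrip1l-/- against 4.96 and 5.42 CPM in WT embryos at 5 dpf. Its log2 fold changes were -0.53 ± 0.17, -1.11 ± 0.19 and -0.80 ± 0.25, with no overlap at either age and no call at 5 dpf (adjusted p = 0.096).

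In other genes of the set, the tail forms gave different values. The gene znf1141, lower at 5 dpf, was lower in CDT with a change of -0.68 ± 0.24 but was at 0.12 ± 0.23 in normal embryos, with 2.89 and 3.56 CPM in CDT and 6.03 and 5.24 CPM in normal embryos, against 6.27 and 4.5 CPM in WT embryos. The difference between tail forms, -0.79 ± 0.24, was not called (edgeR, adjusted p = 0.105). The gene znf1040 was at -0.71 ± 0.29 in CDT, -0.01 ± 0.28 in normal and -1.30 ± 0.44 in 5 dpf mutants, the last with an adjusted p of 0.124 by edgeR. The gene znf1113 had 2 and 3 counts in rpgrip1l-/- against 21 and 12 counts in WT embryos at 5 dpf, with a log2 fold change of -2.46 ± 0.67 just outside the threshold (adjusted p = 0.0552). Of the remaining genes, znf1068 was not tested at 5 dpf, with 7 and 4 counts in rpgrip1l-/- against 12 and 7 counts in WT embryos, and znf1081 was at -0.51 ± 0.55 there, with a change of sign without WT replicate 1. Against WT embryos at 2 dpf, leaving out 1 library ended the CDT call of 5 of the 8 genes, namely znf1141 (CDT or WT replicate 1, at -0.41 without the WT library), znf1179 (CDT replicate 1 or WT replicate 2), znf1040 (CDT replicate 1 or either WT replicate), znf1113 (CDT or WT replicate 2, at -0.70 without the WT library) and znf1081 (any of the 4). In normal embryos it ended those of znf1077 (normal replicate 2 or WT replicate 1) and znf1068 (any of the 4).

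**Figure D4:**
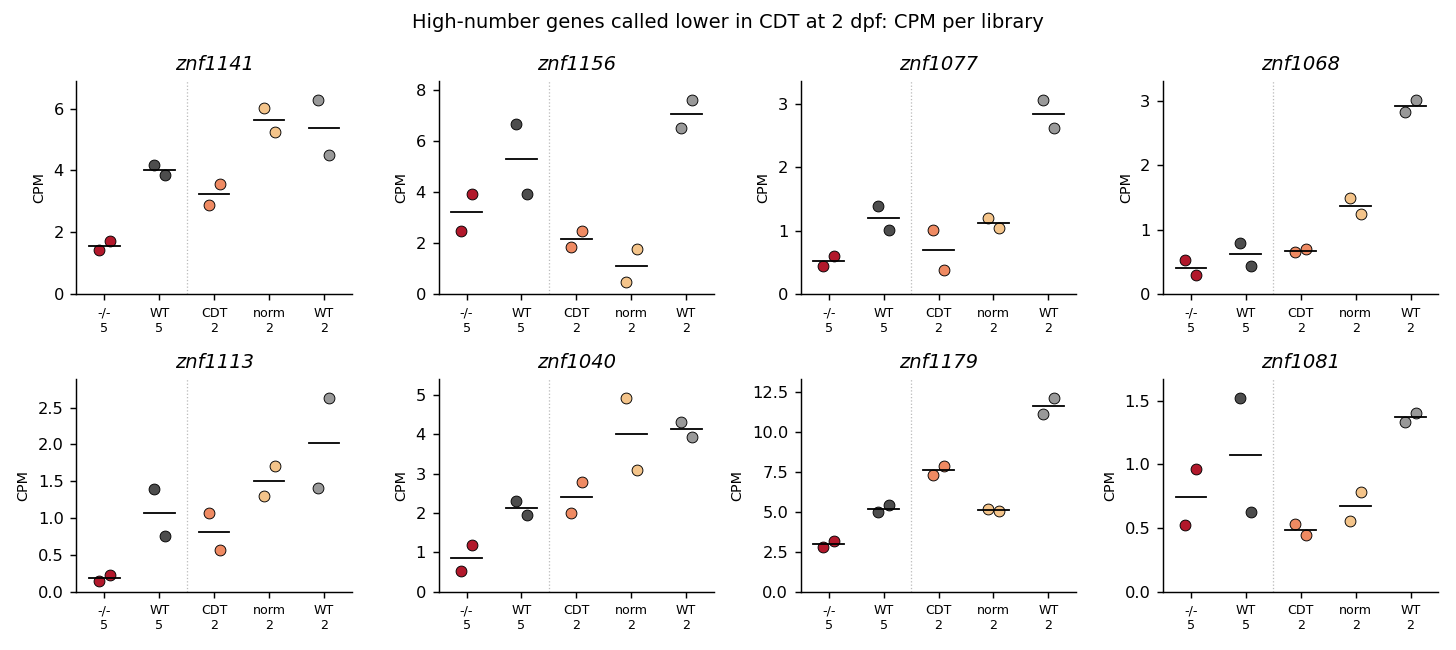
CPM in each library for the 8 high-number genes called lower in CDT than in WT embryos at 2 dpf, with points for libraries and bars for means. At 5 dpf the rpgrip1l-/- mean lies below the WT mean in each panel, and only znf1141 was called there.

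Whether the difference between mutants and WT embryos changed with age was tested in all 10 libraries. The value tested was the difference at 5 dpf minus that at 2 dpf, taking the mean of CDT and normal embryos. It was called higher for 9 of 237 tested znf genes (3.8%) and lower for 25 (10.5%). Over all genes the shares were 14.7% and 8.74%. The median of the znf genes was -0.20, beside 0.06 for all genes. With scaling by library size alone, 1 was called higher and 61 lower, the median of all genes then being -0.36. Leaving out WT replicate 1 at 2 dpf gave 14 lower, leaving out WT replicate 1 at 5 dpf gave 16 lower, and leaving out WT replicate 2 at 2 dpf gave 5 higher. Of the 49 very long mRNAs, 37 were called lower in the same test, and of the 79 ribosomal protein genes, 74 were called higher. Low-number genes made up 8 of the 9 and 21 of the 25.

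Several genes called lower in this test stood higher in mutants at 2 dpf and not at 5 dpf. The ZNF609 gene ENSDARG00000103388 had 5.85 and 4.54 CPM in rpgrip1l-/- against 6.88 and 7.75 CPM in WT embryos at 5 dpf, and 10.2 and 8.07 CPM in CDT and 8.44 and 10.7 CPM in normal against 4.55 and 3.75 CPM in WT embryos at 2 dpf. At 2 dpf mutants lay above WT embryos. At 5 dpf they lay below them by their values, but the log2 fold change of -0.49 was not called. The difference between the ages was -1.66 ± 0.28 (edgeR, adjusted p = 0.000131). For znf1035 the difference was -1.04 ± 0.15 (adjusted p = 2.32e-05), for ZNF462 -1.80 ± 0.40 and for znf423 -0.90 ± 0.21. Among genes called higher, ZNF511 had 6.15 and 4.84 CPM in rpgrip1l-/- against 4.37 and 3.97 CPM in WT embryos at 5 dpf. It lay above WT there by its values, but its log2 fold change of 0.40 ± 0.23 was not called (edgeR, adjusted p = 0.414). It lay below WT at 2 dpf, and the difference between the ages was 1.43 ± 0.30 (edgeR, adjusted p = 0.00115). ZNF706 differed by 0.61 ± 0.12 and the RNA-binding gene znf385d by 1.52 ± 0.42, a call lost without WT replicate 1 at 2 dpf.

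**Figure D5:**
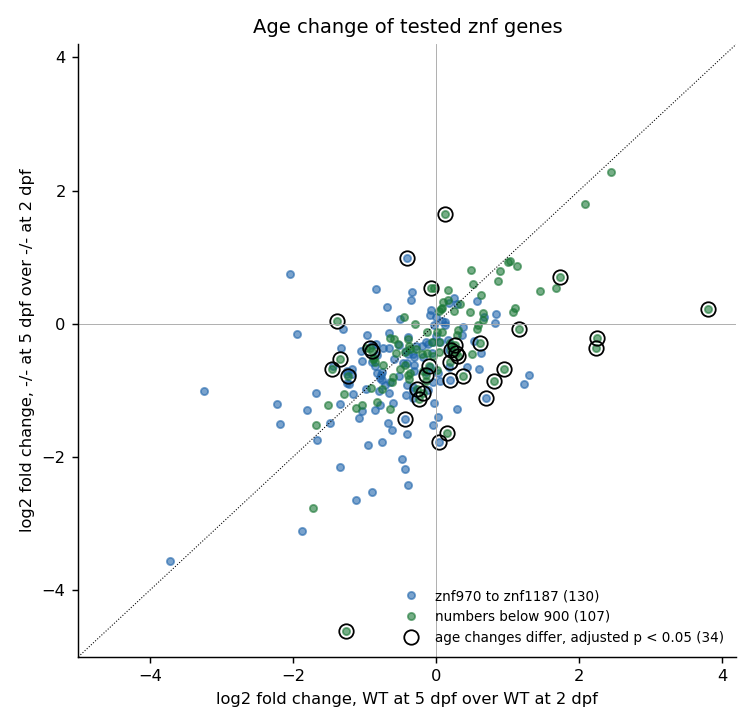
Log2 fold change of each tested znf gene at 5 dpf over 2 dpf in rpgrip1l-/- embryos (vertical) and in WT embryos (horizontal), for high-number genes (blue, 130) and low-number genes (green, 107). Circles mark the 34 genes whose age changes differed between genotypes, 25 below the dotted line of equal change and 9 above it.

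Other families of C2H2 genes and proteins of heterochromatin are given beside the znf genes. The C2H2 list held 172 matched identifiers of families such as klf, sp, egr, zic and gli. At 2 dpf, 62 of 163 were called higher and 9 lower in CDT and 65 higher and 7 lower in normal than in WT embryos, with medians of 0.43 and 0.35. At 5 dpf, 6 of 160 were called higher and 3 lower in rpgrip1l-/- embryos, with a median of 0.10. With age, 42 of 167 were called higher and 60 lower in mutants and 48 higher and 37 lower in WT embryos, with medians of -0.17 and 0.10. The znf medians were -0.48 and -0.31, and those of the low-number znf genes alone were -0.36 and -0.03. The sets were not matched for count level. Of the genes for heterochromatin proteins and corepressors, with which many zinc finger repressors work, 19 of 33 were called lower and 4 higher with age in mutants and 16 lower and 5 higher in WT embryos, with medians of -0.36 and -0.22. At 2 dpf, 10 of 32 were called higher and 2 lower in CDT, and 13 higher and 3 lower in normal than in WT embryos. Over all genes tested, 20.0% were called higher and 20.4% lower in CDT, and 19.2% and 20.4% in normal embryos. The shares at 5 dpf were 1.28% and 2.56%. With age they were 33.1% and 29.6% in mutants and 31.3% and 29.5% in WT embryos.

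Markers of dividing cells and of neural progenitors were read in the same libraries. With age, 5 of 6 neural progenitor markers were called lower in mutants and 5 in WT embryos, with medians of -1.23 and -1.50. Of 11 markers of proliferating cells, 4 were called lower and 5 higher in mutants and 5 lower and 1 higher in WT embryos, with medians of 0.11 and -0.20. Over all genes tested, 29.6% were called lower and 33.1% higher with age in mutants, and 29.5% and 31.3% in WT embryos. All 10 proliferation markers tested at 5 dpf stood higher in rpgrip1l-/- than in WT embryos by their values, between 0.10 and 0.44, with no call. Of the 10 proliferation markers, 6 had an unadjusted p under 0.05, beside 3400 of 20071 over all genes. At 2 dpf their medians were -0.17 in CDT and 0.01 in normal against WT embryos. The part of these cells in the changes of the znf genes was not tested.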

How the data were processed

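Whole zebrafish embryos were pooled (30 to 35 per library), and poly(A) RNA was sequenced by the authors in pairs of 150 bp reads. Per the labels and the methods, the authors used Trim Galore 0.4.4 for trimming, STAR 2.7.3a for alignment to build GRCz11, and HTSeq 0.12.3 for counting. The deposited values are whole-number counts per Ensembl identifier, without normalization. Reads on no gene (45.6% to 47.3% per library), in gene overlaps (0.455% to 0.545%), at several loci (3.20% to 6.31%) or without alignment (4.02% to 6.72%) stayed out of library sizes and tests. Library totals were 9101264 to 17536165, and counting intervals cover counting error only. Whether counting used strand is not given in the sources used here, so overlapping and antisense genes may share reads.

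Symbols came from a table that names 28988 of 32057 identifiers, and 144 of the 315 znf genes (45.7%) matched a gene table of another build, so no positions, lengths or neighbours were used. Counts were tested with edgeR 4.0.16 (R 4.3.3) by its quasi-likelihood test, with TMM scaling, filtering by group and adjusted p under 0.05. The 4 libraries at 5 dpf (2 residual degrees of freedom) and the 6 at 2 dpf (3) were fitted apart, and all 10 together (5) for age and its interaction with genotype. The tests were checked on simulated counts. Alternatives were DESeq2 1.42.0, other scalings and filters, other sets of libraries, a replicate block and leaving out each library. Thinning to the smallest library and the list of very long mRNAs were added after seeing the data.

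Named genes are, per comparison, the 10 largest rises and falls among called znf genes with at least 1 CPM and no overlap of libraries, and called members of a list of 52 genes with known roles. For the interaction of age with genotype, the rule on overlap was not applied. Other named genes are marked, or were taken because they were called in CDT embryos at 2 dpf. The genes and lists were chosen with earlier results of these data known, so no list was tested as a set.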

Additional observations from a re-analysis of the deposited data

Results flagged for a closer look

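The difference between mutant and WT embryos was not the same at 5 dpf as at 2 dpf for 26 of the named znf genes, by the test in all 10 libraries (edgeR, adjusted p under 0.05). Of all 237 tested znf genes, 14.3% were called in this test, fewer than the 23.4% of all genes tested. By direction, 3.8% of the znf genes were called higher and 10.5% lower, beside 14.7% and 8.74% of all genes. The values are the log2 difference at 5 dpf minus that at 2 dpf, with CDT and normal embryos averaged. It was negative for ZNF821 (-3.35, resting on 2 and 0 counts in mutants and 4 and 3 in WT embryos at 5 dpf), ZNF704 (-2.60, resting on 2 and 2 counts in WT embryos at 2 dpf), the ZNF521 gene ENSDARG00000116769 (-2.47), znf990 (-1.82), znf1187 (-1.81), ZNF462 (-1.80), the ZNF609 genes ENSDARG00000103388 (-1.66) and ENSDARG00000104530 (-0.55), ZNF385A (-1.63), znf469 (-1.25), ZNF326 (-1.16), znf1035 (-1.04), ZNF536 (-1.03), znf1141 (-0.99), znf423 (-0.90), znf219 (-0.79) and ZNF292 (-0.61). It was positive for the ZNF207 gene ENSDARG00000101277 (0.45), znf593 (0.49), znf346 (0.56), ZNF706 (0.61), znf740b (0.76), znf750 (0.81), znf1156 (1.40), ZNF511 (1.43) and znf385d (1.52). In the same test, 37 of 49 very long mRNAs were called lower and 74 of 79 ribosomal protein genes higher, and their part in these values was not tested. When each of the 10 libraries was left out in turn, 9 of the 26 genes were called every time, namely ZNF462, ENSDARG00000103388 of ZNF609, znf469, znf1035, ZNF536, znf423, ZNF706, znf740b and ZNF511. Another 9 lost the call in 1 to 3 of the 10 fits. The other 8 lost it more often, ZNF821 in 9, znf1141 in 8, ZNF704 and ZNF292 in 6, znf1187 in 5 and znf990, ZNF326 and znf219 in 4. The value of znf750 was 0.48 without rpgrip1l-/- replicate 2 at 5 dpf, that of ZNF292 -0.40 without WT replicate 2 at 2 dpf, and that of ZNF821 -6.58 without rpgrip1l-/- replicate 1 at 5 dpf, which leaves 0 counts in that group. The other values moved by less than 1.5 times.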

How the results depend on the processing

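Counts of called znf genes are given as higher and lower. By DESeq2 they were 0 and 0 at 5 dpf, 34 and 8 in CDT, 33 and 9 in normal against WT embryos, 0 and 0 between tail forms, and 15 lower for the interaction. With all 10 libraries fitted together they were 3 and 4 at 5 dpf and 0 higher between tail forms. At least 10 counts in every library gave 0 higher at 5 dpf, 10 lower in CDT against WT embryos and 1 higher between tail forms. Thinned to the smallest library, an alternative chosen after seeing the data, counts gave 0 and 0 at 5 dpf, 1 higher between tail forms and 12 lower for the interaction. No filter gave 0 higher at 5 dpf. Scaling by library size alone gave 127 and 4 in CDT, 118 and 6 in normal, 11 higher with age in mutants, and 1 and 61 for the interaction. It turned znf346 to 0.15 in CDT, and ZNF410 to 0.10 in normal against WT embryos and to -0.079 with age in mutants. Other counts of the whole set stayed within 1.5 times. Of high-number genes alone, DESeq2 called 7 higher and 3 lower in CDT against WT embryos, in place of 19 and 8. In normal against WT embryos it called 2 and 3, in place of 8 and 5. The replicate numbers did not pair the libraries (correlations of -0.05 to 0.03), and the replicate block gave 3 lower at 5 dpf.

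Leaving out 1 library gave 0 to 1 higher and 0 to 2 lower at 5 dpf, 41 to 63 and 10 to 15 in CDT against WT, 31 to 46 and 10 to 15 in normal against WT, 0 to 1 and 0 between tail forms, 15 to 25 and 41 to 55 with age in WT, 12 to 18 and 67 to 96 with age in mutants, and 5 to 10 and 14 to 22 for the interaction. The uncalled znf1081 lay between -1.01 and 0.24 at 5 dpf, with the positive value without WT replicate 1. Where this leaves 1 library in a group, it is assumed to vary like the others. Of the fold changes of named genes, 1495 of 1629 under other settings and 1487 of 1703 without a library kept their direction and side of the threshold. The cause of the moves was not tested. At 5 dpf the median SE of the log2 fold change was 0.43 for the tested high-number genes and 0.18 for the low-number genes.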
